A study of Mus musculus with 3 samples.

Results

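Tail-to-tail coding gene pairs are neighbours on opposite strands that are transcribed towards each other, so that the last part of each RNA can be complementary to its neighbour. In the assembled transcript table of mouse testis, 387 such pairs shared exon sequence, and they joined 771 of the 13175 coding genes. A pair was taken where a plus-strand model started below the minus-strand model, ended inside it and shared at least 1 bp of exon with it, both models carrying a code that begins with NM_R and different gene symbols. Each pair was counted once, with its longest overlap. The pairs were thus chosen by the positions of their RefSeq models, and overlap lengths are given as a description with no test.

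The series held 3 libraries of wild-type C57BL/6J mouse testes, 1 per group. CAGE, which reads capped RNA starts, was run at 10.5 days post partum and in adults. PAS-Seq, which reads polyadenylated ends, was run in adults. The transcript table covers the whole series, and which reads its models were built from is not given. It held 50081 transcript models in all, with positions in mm9 and no value per library. No group was compared with another, sequencing depth is unknown, and all counts below are of genes or pairs in 1 table, with no replicate. With no expression values, the tissue could not be checked against its markers. No label or header explains the codes. Models coded NM_R carried RefSeq accessions, so these pairs describe annotated genes that the authors kept under that code, and their presence is not a measure of expression. The table does not mark coding sequence, so whether an overlap lies in untranslated sequence was not read from it.

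The end of an mRNA is set where the transcript is cut and a poly(A) tail is added, and the sequence before that point holds sites for microRNAs and RNA-binding proteins. Many genes have several such sites, and testis germ cells are known for using sites close to the coding sequence, which gives shorter 3′ ends. Where a pair of facing genes overlaps, the choice of site sets how much of the RNAs is complementary. Such RNAs can in principle pair as double-stranded RNA when both are made in the same cell.

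Nearly all members were protein-coding by their names. Of the 771 genes, 767 matched a symbol or older symbol in the RefSeq gene table of GRCm38.p6, and 762 of these were protein-coding there, 4 were transcribed pseudogenes and 1 was a long noncoding RNA. In 6 pairs the longest overlap used a model with a noncoding accession, among them Abhd1/Preb and the phosphatidylserine decarboxylase pseudogenes Pisd-ps1 and Pisd-ps3, which both faced Sfi1, a centrosome gene. Of 383 pairs with both names matched, 372 (97.1%) also had overlapping gene spans in GRCm38.p6.

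Most overlaps were short. The median was 222 bp, with quartiles of 77 and 530.5 bp and a range of 1 to 2554 bp. In 71 pairs (18.3%) the shared exon sequence was under 50 bp, in 114 pairs it was 50 bp to under 200 bp, in 168 pairs 200 bp to under 1000 bp, and in 34 pairs (8.79%) 1000 bp or more. All the overlaps together came to 147686 bp. The pairs thus ranged from genes whose ends barely touched to genes that shared most of an RNA.

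Pairs just inside and just outside the rule differed by a few bases. Ccdc64b overlapped Thoc6, a subunit of the THO complex of mRNA export, by 1 bp. Snx21 overlapped Acot8, a peroxisomal thioesterase, by 3 bp, and 2700081O15Rik/Rtn3, Adck5/Cpsf1 and Il11ra1/Ccl27a overlapped by 4 bp each. On the other side, Ilvbl and Syde1 ended with a gap of 0 bp, and Cdk10/Spata2l, Hspb6/Lin37, Rdbp/Cfb and Tsnaxip1/Cenpt with a gap of 1 bp each. Facing coding genes that did not overlap formed 252 pairs with a gap of up to 500 bp, of 503 genes (3.82% of all coding genes), and 408 pairs with a gap of up to 1000 bp. Under 100 bp there were 119 overlaps and 71 gaps, from 100 bp to under 200 bp 66 overlaps and 68 gaps, from 200 bp to under 500 bp 99 overlaps and 111 gaps, and from 500 bp to under 1000 bp 69 overlaps and 158 gaps. By these measures overlaps were the more frequent form under 100 bp, counts lay close up to 500 bp, and gaps were more frequent beyond. The 2 measures are unlike, since overlaps count exon sequence alone and gaps count all bases between the ends. AU040320/Zmym4, for example, counted as an overlap of 43 bp although the ends crossed by 7874 bp. The comparison thus depends in part on the measure.

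**Figure D1:**
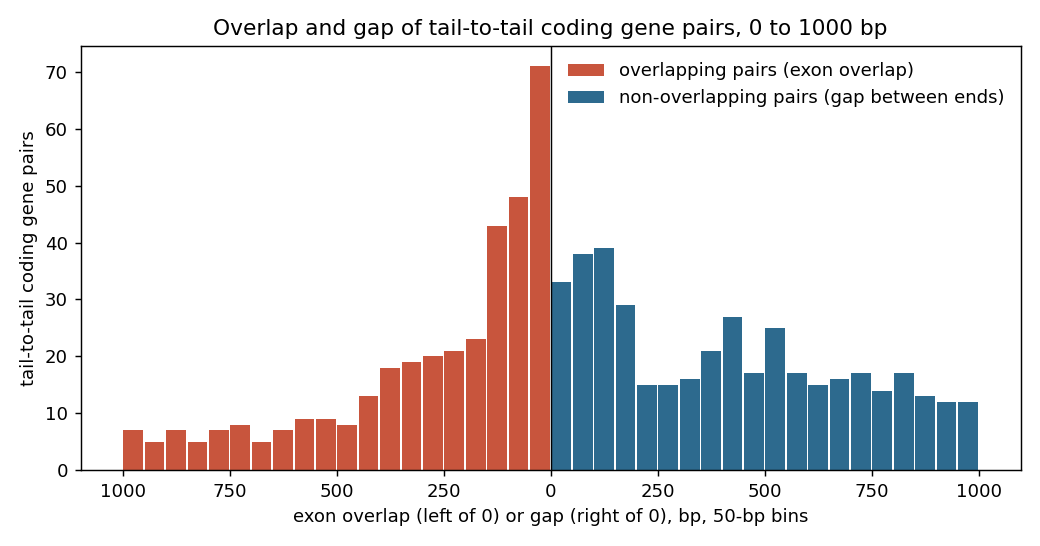
Number of tail-to-tail coding gene pairs (vertical axis) by length of exon overlap, drawn left of 0, or by gap between the ends, drawn right of 0, in bins of 50 bp up to 1000 bp. The tallest bar is the bin of overlaps under 50 bp, with 71 pairs, against 33 pairs with a gap of 0 to 49 bp. Overlaps count exon sequence alone and gaps count all bases between the ends, so the sides are unlike measures.

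The 10 longest overlaps joined genes of unrelated function. Heatr7b1, a HEAT-repeat gene, and Hjurp, the chaperone that loads the centromeric histone CENP-A, shared 2554 bp on chromosome 1 (Heatr7b1 90123595 to 90158864, Hjurp 90155431 to 90174154). The last exon of Hjurp had 7803 bp, and all 2385 bp of the last exon of Heatr7b1 lay within it. Hjurp was also the one gene of the 771 with a gene-named piRNA model. The share over all coding genes was not computed, so this count is not read as low or high. Of the 2 piRNA-named models of Hjurp, pi-Hjurp.2 (90155431 to 90174093, 8378 nt) held the same 2554 bp. The other, pi-Hjurp.1 (4120 nt), had its 3′ end at 90159689 and shared 0 bp with Heatr7b1. The long form thus covered the overlap and the short form stopped before it.

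On chromosome 10, Echdc1, a metabolic repair decarboxylase, and Rnf146, a ubiquitin ligase that reads poly(ADP-ribose), shared 2321 bp (29032972 to 29066467 and 29063982 to 29082248). This was 78.8% of the spliced Echdc1 model of 2946 nt and 53.4% of the Rnf146 model of 4343 nt. Clvs1, which encodes the lipid-binding clavesin, and Asph, an aspartate beta-hydroxylase gene, shared 2302 bp on chromosome 4, but in 2 of their 7 pairs of RefSeq models alone. Asph has RefSeq models of very different length, and the others did not reach Clvs1. Tmem140 and 3110062M04Rik shared 2168 bp on chromosome 6, which was 82.9% of Tmem140.

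The remaining 6 of the 10 shared 1599 to 2137 bp. Usp34, a deubiquitinase gene with 81 exons, shared 2137 bp with the HSP90 co-chaperone gene Ahsa2 on chromosome 11, which was 17.6% of Usp34 and 59.3% of Ahsa2. Thoc1, of the THO export complex, shared 1870 bp with Usp14, the deubiquitinase of the proteasome. Masp2, a protease of the complement system, shared 1798 bp with Tardbp, which encodes the RNA-binding protein TDP-43. Rufy2 shared 1764 bp with the ribonucleoprotein gene Hnrnph3, 81.4% of the spliced length of Hnrnph3. Lrch3 shared 1760 bp with Iqcg, a gene needed for the mouse sperm tail. Ccne2, cyclin E2, shared 1599 bp with Ints8, a subunit of the Integrator complex, over 94.2% of the last exon of Ccne2 and 96.6% of that of Ints8.

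**Figure D2:**
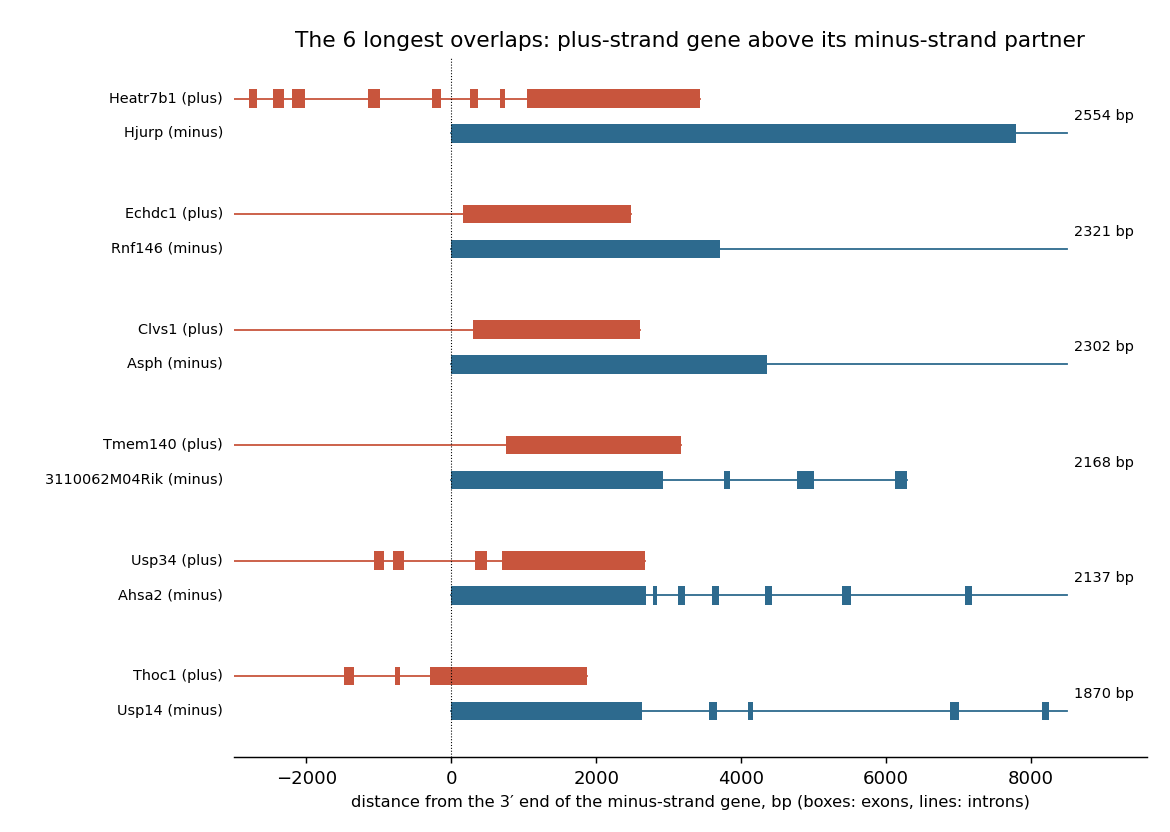
RefSeq models of the 6 pairs with the longest overlap, plus-strand gene (red) above minus-strand gene (blue), against distance in bp from the 3′ end of the minus-strand gene (boxes are exons, lines are introns, and models are clipped at the panel edges). In the first row the whole last exon of Heatr7b1 lies inside the last exon of Hjurp, with 2554 bp shared, and in the last row Thoc1 and Usp14 share 1870 bp.

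Short genes could lie mostly within their neighbour. The overlap was over 50% of the shorter spliced model in 24 pairs, against a median of 12.2% over all 387 pairs. Abhd1 shared 86.5% of its 1356 nt with Preb, by a model with a noncoding accession. Phospho1, a phosphatase of bone mineralisation, shared 83.2% of its 1910 nt with Abi3. The clone gene 1700088E04Rik shared 78.3% of its 1253 nt with Micall1, and Ormdl2, a regulator of sphingolipid synthesis, 75.9% of its 2055 nt with Dnajc14. Sco2, a copper chaperone for cytochrome c oxidase, shared 72.4% of its 1145 nt with Ncaph2, a condensin II subunit.

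Overlaps lay almost always between last exons. In 308 pairs (79.6%, 95% exact interval 75.2 to 83.5) the shared sequence lay only between the 2 last exons, with a median of 156.5 bp. In 57 pairs (14.7%, 11.4 to 18.7) it also took in earlier exons, with a median of 628 bp. In 22 pairs (5.68%, 3.60 to 8.48) the last exons did not meet each other, and the median was 163 bp. In these the ends crossed further, with a median of 4548 bp between the ends, introns included, against 207 bp for pairs in last exons only. Intervals here and below cover counting error only.

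The pairs whose last exons did not meet were interlocked. The longest was Mlf1ip, a centromere gene, with Ccdc111, the gene of the repair primase PrimPol, which shared 1069 bp on chromosome 8 with 3991 bp between their ends. Mllt10/Dnajc1 shared 749 bp, Brsk1/Tmem150b 742 bp and Trnt1/Crbn 680 bp. Spag17, a gene of the central pair of the sperm axoneme, shared only 109 bp of exon with Wdr3, although their ends lay 5143 bp across each other. The shortest of the 22, AU040320/Zmym4, shared 43 bp over a crossing of 7874 bp.

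The share of a last exon that was covered varied widely. Its median was 20.9% for the plus-strand gene (quartiles 6.69 and 56.8%) and 23.4% for the minus-strand gene (8.81 and 51.7%). In 70 pairs it was under 10% for both genes, in 178 it was over 50% for at least 1 gene, and in 37 over 50% for both. A last exon was wholly covered in 117 pairs, 61 times on the plus strand and 56 times on the minus strand, and 0 pairs had both covered. The gene with the shorter last exon was thus often enclosed while its partner ran on. That 0 pairs had both covered is nearly fixed by the rule. Last exons that meet can both be covered only if their borders are identical. Examples chosen after their values were seen are Mns1, a gene of meiotic nuclei and sperm flagella, whose last exon of 264 bp lay within that of Tex9 (3224 bp), and Ccdc39, a ciliary assembly gene, whose last exon of 840 bp lay within that of Ttc14 (9819 bp).

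**Figure D3:**
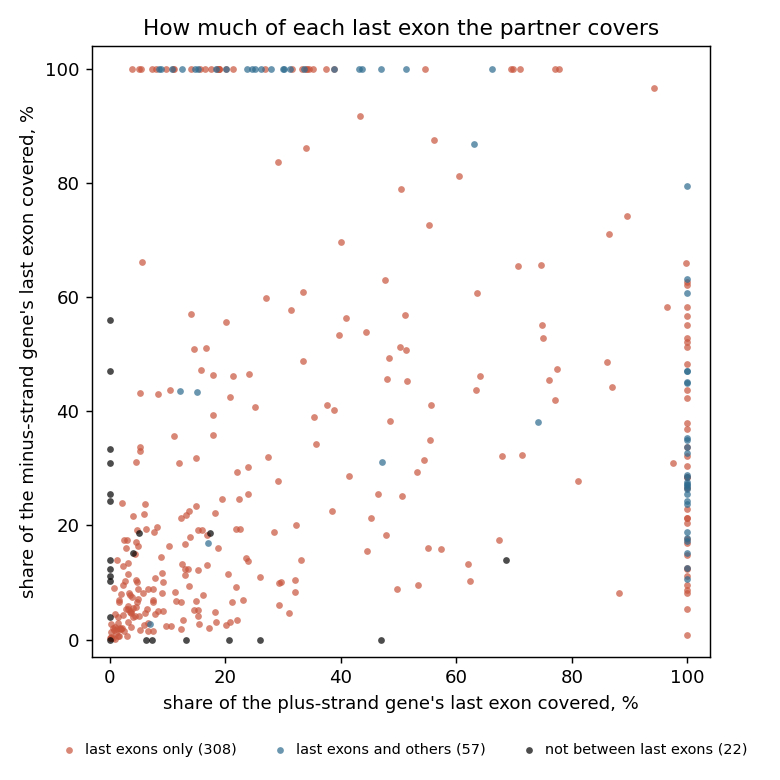
Share of the last exon covered by exons of the partner, in percent, for the plus-strand gene (horizontal axis) and the minus-strand gene (vertical axis), 1 point per pair, coloured by which exons overlap. Points on the right edge (61 pairs) and the top edge (56 pairs) have 1 last exon wholly covered. No point lies in the corner where both would be, which last exons that meet could reach only with identical borders.

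RefSeq models of the same gene could differ in whether they overlapped. In 218 pairs each gene had 1 model. Of the 169 others, every combination of models overlapped in 130 pairs and some combination did not in 39. Ercc1, for example, had 2 RefSeq models, and 1 of them overlapped its neighbour. More than 1 RefSeq model was found for 191 of 771 pair genes (24.8%, 21.8 to 28.0), against 20.4% of all coding genes, and RefSeq ends over 50 nt apart for 47 pair genes (6.10%, 4.51 to 8.02), against 3.87% of all coding genes. A gene entered the set if any of its models reached a neighbour. More models or more distant ends thus gave more ways to enter, and these differences were not tested.

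Genes of DNA repair were in pairs in 7 of 35 cases (20.0%), where 5.85% of all coding genes were. The list was drawn up with Msh6 and Ercc1 known as members of overlapping pairs in mammals, so its count is no independent evidence, and it was not tested. Apex1, the main endonuclease at abasic sites, had the longest overlap of these, 926 bp with Tmem55b on chromosome 14 (51544624 to 51546863 and 51545745 to 51550524), which covered all 733 bp of the last exon of Apex1. Zfp276 and Fanca, a Fanconi anaemia gene, shared 777 bp on chromosome 8, with the last exon of Fanca, 306 bp, wholly covered.

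Ercc2 and Ercc1, both genes of nucleotide excision repair, lay close to each other on chromosome 7. Ercc2, the XPD helicase gene (19967388 to 19981041), shared 585 bp with Klc3, a kinesin light chain of sperm tails. Ercc1, the partner of the XPF nuclease (19930420 to 19941873), shared 106 bp with Cd3eap, an RNA polymerase I subunit. Lig3, a DNA ligase, shared 456 bp with Rffl on chromosome 11. The smallest overlaps of this group were 63 bp for Ogg1, the 8-oxoguanine glycosylase, with Camk1, and 34 bp for the mismatch repair gene Msh6 with Fbxo11.

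Genes that cut and process RNA were in pairs at shares near the background. Of 22 genes of cleavage and polyadenylation, the machinery that sets these ends, 2 were in pairs (9.09%, beside 5.85% of all coding genes). Fip1l1 overlapped Lnx1 by 21 bp, and Cpsf1 overlapped Adck5 by 4 bp, so both touched their neighbour only at the edge. Of 19 genes that handle double-stranded RNA, 1 was in a pair (5.26%). This was Dgcr8, the RNA-binding subunit of the microRNA processor, which shared 808 bp with the tRNA methyltransferase gene Trmt2a on chromosome 16, over 49.2% of the last exon of Dgcr8 and 48.3% of that of Trmt2a.

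The lists of testis cell types held 1 pair gene between them. It was Sycp3, a structural gene of the synaptonemal complex, which shared 80 bp with the phospholipid enzyme gene Chpt1 on chromosome 10 in 2 of 3 model combinations. It was 1 of 26 meiotic genes (3.85%). The other lists had 0 members in pairs: 0 of 20 piRNA pathway genes, 0 of 18 spermatid and sperm genes, 0 of 10 spermatogonial, 0 of 11 Sertoli, 0 of 8 Leydig, 0 of 8 peritubular, vascular and immune, 0 of 9 housekeeping genes and 0 of 1 other-tissue gene. Over all 12 lists, 11 of 187 distinct genes were in pairs (5.88%), a share near the background of 5.85%. At lists of this size a share of 5.85% gives few members or none.

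The X chromosome carried few pairs. On X, 8 of 529 coding genes (1.51%, 0.655 to 2.96) were in 4 pairs, whereas on autosomes 763 of 12636 genes (6.04%, 5.63 to 6.47) were in 383 pairs. Among autosomes the share ran from 3.64% on chromosome 13 (18 of 495 genes) to 8% on chromosome 17 (52 of 650), and the intervals of most chromosomes overlapped. The genes of a pair enter together, so these intervals, which treat each gene as separate, are too narrow for counting error. No difference between chromosomes was tested. Of 10 coding genes on Y, 0 were in a pair.

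Hardly any gene had more than 1 partner. Of the 771 genes, 3 had 2 partners each. Ncaph2 overlapped Sco2 by 829 bp and Tymp, the thymidine phosphorylase gene, by 535 bp, both on the minus strand of chromosome 15. Sfi1 overlapped Pisd-ps1 by 95 bp and Pisd-ps3 by 93 bp, which are pseudogene copies of 1 gene, so that reads may not tell them apart. Tbc1d17 overlapped Il4i1 by 34 bp and the readthrough gene Nup62-il4i1 by 28 bp.

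Pair genes also faced a neighbour at their start more often by count than coding genes at large. A head-to-head coding partner, with starts 1 to 500 bp apart, was found for 131 of 771 pair genes (17.0%, 14.4 to 19.8), for 74 of 503 genes with a facing end at a gap of up to 500 bp (14.7%, 11.7 to 18.1), and for 9.77% of all coding genes. This difference was not tested, and pair genes also spanned less of the genome, with a median of 16174 bp against 21538 bp for all coding genes, whose part in it was not tested. In 8 pairs both genes had such a partner, so that 4 coding genes stood in a row with close starts outside and a shared tail inside. In 117 pairs 1 gene had such a partner and in 262 neither had.

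The row with the longest tail overlap lay on chromosome 1, where Ankzf1 and the galactosidase-like gene Glb1l shared 688 bp. In mm9 the start of Ankzf1 lay 211 bp from that of Atg9a, an autophagy gene. The start of Glb1l lay 50 bp from that of the kinase gene Stk16. The promoter windows of Ankzf1 and Glb1l are shown because these are the inner genes of such a row. They are from RefSeq (GRCm38.p6, 250 bp before to 50 bp after the start), whose starts can differ from those in mm9. Capitals mark the run that is also found, on the other strand, in the promoter window of the head-to-head partner, 249 of 300 bp for Ankzf1 with Atg9a and 173 of 300 bp for Glb1l with Stk16.
Ankzf1, plus strand, chr1:75191910-75192209: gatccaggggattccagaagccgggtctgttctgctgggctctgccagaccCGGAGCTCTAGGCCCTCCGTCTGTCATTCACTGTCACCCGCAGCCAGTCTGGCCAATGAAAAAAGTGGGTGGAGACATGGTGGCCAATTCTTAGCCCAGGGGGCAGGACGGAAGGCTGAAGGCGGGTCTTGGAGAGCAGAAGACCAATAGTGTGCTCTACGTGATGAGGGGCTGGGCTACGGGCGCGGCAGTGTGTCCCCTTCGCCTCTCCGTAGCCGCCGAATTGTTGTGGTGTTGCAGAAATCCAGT
Glb1l, minus strand, chr1:75210706-75211005: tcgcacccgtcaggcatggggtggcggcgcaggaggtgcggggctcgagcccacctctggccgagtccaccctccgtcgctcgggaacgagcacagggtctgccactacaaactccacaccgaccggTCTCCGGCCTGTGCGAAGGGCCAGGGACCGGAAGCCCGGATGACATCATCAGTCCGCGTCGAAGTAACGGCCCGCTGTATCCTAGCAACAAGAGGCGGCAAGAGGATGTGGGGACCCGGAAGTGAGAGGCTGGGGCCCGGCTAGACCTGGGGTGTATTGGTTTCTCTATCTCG

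The other 7 rows held genes of several basic processes. Thyn1 and Vps26b, a retromer gene, shared 586 bp between Acad8 (127 bp from Thyn1) and Ncapd3, a condensin II gene (80 bp from Vps26b). Plcd4/Zfp142 shared 393 bp between Usp37 and Bcs1l. In mm9 the starts of Plcd4 and Usp37 lay 73 bp apart, but the longest run shared by their GRCm38.p6 promoter windows was 8 bp. Cpsf3l, the RNA endonuclease gene of Integrator, shared 244 bp with Pusl1, and Bud31, a splicing factor gene, 240 bp with Ptcd1, whose start lay 119 bp from that of the polyadenylation factor gene Cpsf4. Bccip, whose product binds BRCA2, shared 211 bp with Dhx32, which faced Fank1 across 87 bp. Ap4m1 shared 69 bp with Taf6, a subunit of the general transcription factor TFIID, and its start lay 158 bp from that of the replicative helicase gene Mcm7. Srpr/Fam118b shared 39 bp.

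Assembled models do not come from RefSeq, and the rule did not use them. Their ends are set below against RefSeq ends, which the rule did use. These models carry an identifier of the form CUFF, as the Cufflinks assembler writes it, and 7148 of them bore the symbol of a coding gene. Pair genes had such a model in 174 of 771 cases (22.6%, 19.7 to 25.7), against 39.9% of all coding genes. Genes with a facing end at a gap of up to 500 bp lay between, at 31.6% (27.6 to 35.9). How CUFF models were named or filtered where genes overlap is not given. Read by position, with any CUFF model that shared exon sequence on the same strand, the share was 23.9% (20.9 to 27.0) in pair genes, 33.0% (28.9 to 37.3) in genes with such a gap and 43.2% (42.3 to 44.0) in all coding genes. Of 213 CUFF models with the symbol of a pair gene, 5 shared no exon sequence with the RefSeq models of that gene. The share was lower for pair genes than for genes in no pair in each of 4 equal classes of genomic span: 15.0% against 24.6% in the shortest class, 20.6% against 37.3% in the next, 27.6% against 44.2% in the one after, and 33.1% against 57.2% in the longest. Among genes in no overlapping pair, those with a head-to-head partner also had a lower share (28.1%) than those without (42.3%), whereas among pair genes it was 22.1% with such a partner and 22.7% without.

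**Figure D4:**
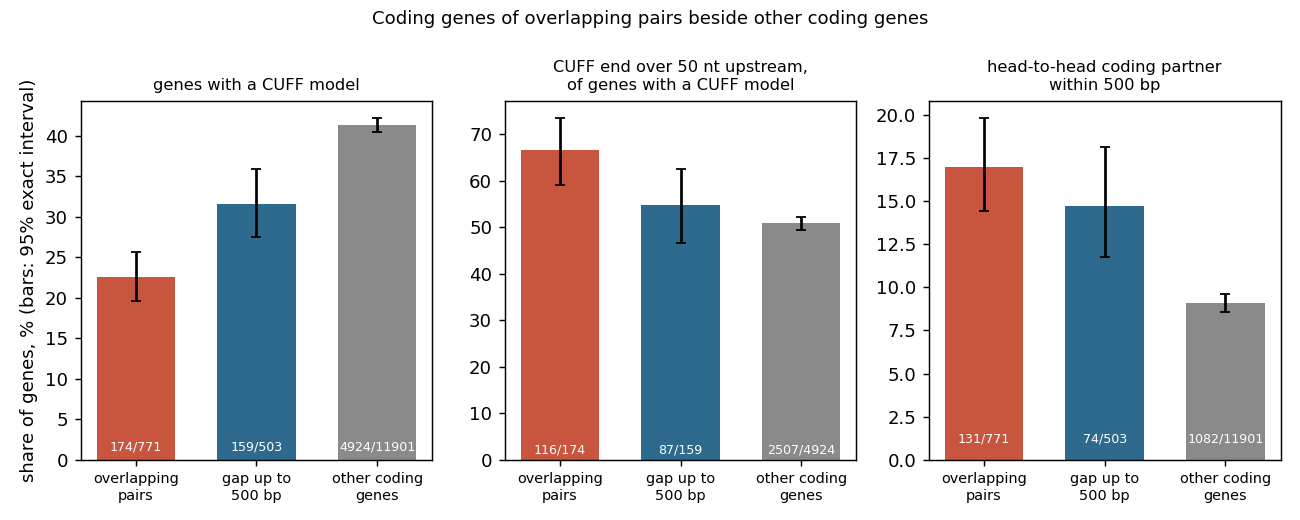
Share of genes in percent (bars start at 0, error bars are 95% exact intervals, counts are printed in the bars) for genes of overlapping pairs, genes with a facing end at a gap of up to 500 bp, and other coding genes. From left to right the panels show genes with a CUFF model (22.6% of pair genes, 41.4% of other coding genes), genes whose CUFF end lay over 50 nt upstream, as a share of genes with a CUFF model (66.7%, 50.9%), and genes with a head-to-head coding partner (17.0%, 9.09%).

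Where CUFF models existed, their ends were mostly short of the RefSeq end. Of the 174 pair genes with such a model, 116 (66.7%, 59.1 to 73.6) had a CUFF end more than 50 nt upstream of every RefSeq end, against 51.6% of all coding genes with a CUFF model. In 25 (14.4%, 9.52 to 20.5) a CUFF end lay more than 50 nt downstream of every RefSeq end, against 24.8%. Shorter ends were thus the more frequent kind in both. The difference between pair genes and all coding genes is partly built in. CUFF ends were measured from RefSeq ends, and pair genes were chosen by RefSeq ends that reach a neighbour. It was not tested.

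By pairs, 163 of 387 (42.1%) had a CUFF model on at least 1 gene, and 12 of these on both. When a gene with CUFF models was read by those alone, 76 of the 163 pairs (46.6%) still shared exon sequence and 87 (53.4%) did not. The median RefSeq overlap was 313 bp for the 76 and 219 bp for the 87. Of the 76, 34 overlapped less than by RefSeq, 19 by the same length and 23 by more. A CUFF model can be a fragment of its gene, so a lost overlap does not show that the longer RNA was absent.

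Of the 10 longest overlaps, 5 had a CUFF model, and when read by CUFF models alone 2 of these were lost and 3 were kept in part. Echdc1/Rnf146 kept 1351 of 2321 bp, Rufy2/Hnrnph3 953 of 1764 bp and Ccne2/Ints8, with a CUFF end 423 nt early, 1372 of 1599 bp. The CUFF models of Echdc1 ended 980 nt early. Those of Rnf146 differed, with an end 9914 nt beyond the RefSeq end and another 2580 nt short of it. Lost were Heatr7b1/Hjurp and Thoc1/Usp14. The CUFF model of Heatr7b1 ended 9937 nt before the RefSeq end, with 31 exons, and no longer reached Hjurp. That of Thoc1 had all 21 exons but ended 1971 nt early and missed Usp14. These 2 were also among the 5 largest losses of all pairs. Of the other 3, Dnajc14 ended 2062 nt early and no longer met Ormdl2, and Rtn4, the gene of the reticulon Nogo, ended 1693 nt early and lost its 1364 bp with Eml6. Pcbp2, a poly(C)-binding protein gene, ended 1324 nt early and kept 247 of its 1571 bp with Map3k12.

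Of the 11 listed pairs, 4 had a CUFF model, each with an end short of RefSeq, on the listed gene (Lig3, Fip1l1) or on its partner (Tmem55b, Klc3). The CUFF model of Lig3 ended 3630 nt before the RefSeq end with 19 exons and shared 0 bp with Rffl. Its last exon was a different one, of 146 bp (82614001 to 82614146), in place of the RefSeq last exon of 2994 bp (82614783 to 82617776). Lig3 is known to make a form in mouse male germ cells, DNA ligase III beta, by alternative splicing of its 3′ end. Both CUFF models of Fip1l1 ended 1257 nt early and missed Lnx1, and the CUFF model of Tmem55b, the partner of Apex1, ended 1266 nt early. Klc3, the partner of Ercc2, ended 107 nt early and kept 478 of 585 bp. The other 7 pairs of these lists, Sycp3/Chpt1 and Trmt2a/Dgcr8 among them, had no CUFF model.

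In 26 pairs the overlap was longer with CUFF models added, counting any gain. Some gains were slight, such as 1 bp for Herc1/Fbxl22 and for Slc2a12/Tbpl1 and 10 bp for Echdc1/Rnf146. The 5 largest gains follow. Tctn1, a gene of the ciliary transition zone, had CUFF models ending 3659 nt beyond its RefSeq end, and overlapped the proton channel gene Hvcn1 of sperm and immune cells by 1574 bp, against 321 bp by RefSeq. BC016423 reached 1363 bp with Gdi2, against 227 bp by RefSeq, and Ino80e, a chromatin remodelling subunit, 912 bp with Doc2a, against 273 bp. Mppe1 reached 802 bp with the G protein gene Gnal, against 364 bp. For Cog5/Hbp1 the overlap was 1243 bp with CUFF models and 118 bp by RefSeq, although the CUFF models of Cog5 that gave it ended before the RefSeq end.

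CUFF models also joined 30 further coding pairs that RefSeq models left apart, with a median overlap of 323.5 bp and a range of 21 to 5500 bp. By RefSeq models, 9 of these had a gap of up to 500 bp, 20 a larger gap and 1 overlapping spans. The longest was Cdc37l1/Ak3 on chromosome 19, where the CUFF model of Cdc37l1 ran 9602 bp beyond the RefSeq end. The symbol of such a model may be wrong: that of Nthl1, with 46 exons, lay at Pkd1 and ended at its end (24733459 on chromosome 17), so that Nthl1/Tsc2 repeated Pkd1/Tsc2.

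Tail overlaps known from mammals were found in both sets. Of 7 such pairs listed from general knowledge, 5 overlapped by RefSeq models, among them Surf2/Surf4 by 130 bp, Ercc1/Cd3eap by 106 bp, Msh6/Fbxo11 by 34 bp, and Pkd1 with Tsc2, genes of polycystic kidney disease and tuberous sclerosis, by 578 bp. The other 2 came from CUFF models. RefSeq models of Thra, a thyroid hormone receptor gene, and Nr1d1, the clock repressor gene Rev-erb alpha, lay 2823 bp apart on chromosome 11. A CUFF model of Thra (98603187 to 98630187, 10 exons) was spliced to a further exon of 717 bp (98629471 to 98630187), ended 3762 bp beyond the RefSeq end and overlapped Nr1d1 (98629249 to 98636556) by 263 bp. Thra is known to make such a longer splice form, alpha 2, whose end is complementary to Nr1d1.

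The second, the growth factor gene Fgf2 with Nudt6, known for its antisense RNA to Fgf2, had a gap of 153 bp by RefSeq models on chromosome 3. A CUFF model of Fgf2 (37247575 to 37308878) had a last exon of 5345 bp in place of 219 bp, ended 5126 bp beyond the RefSeq end and overlapped Nudt6 (37303906 to 37318512) by 563 bp. The new last part of Thra was thus reached by splicing and that of Fgf2 by a longer last exon.

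**Figure D5:**
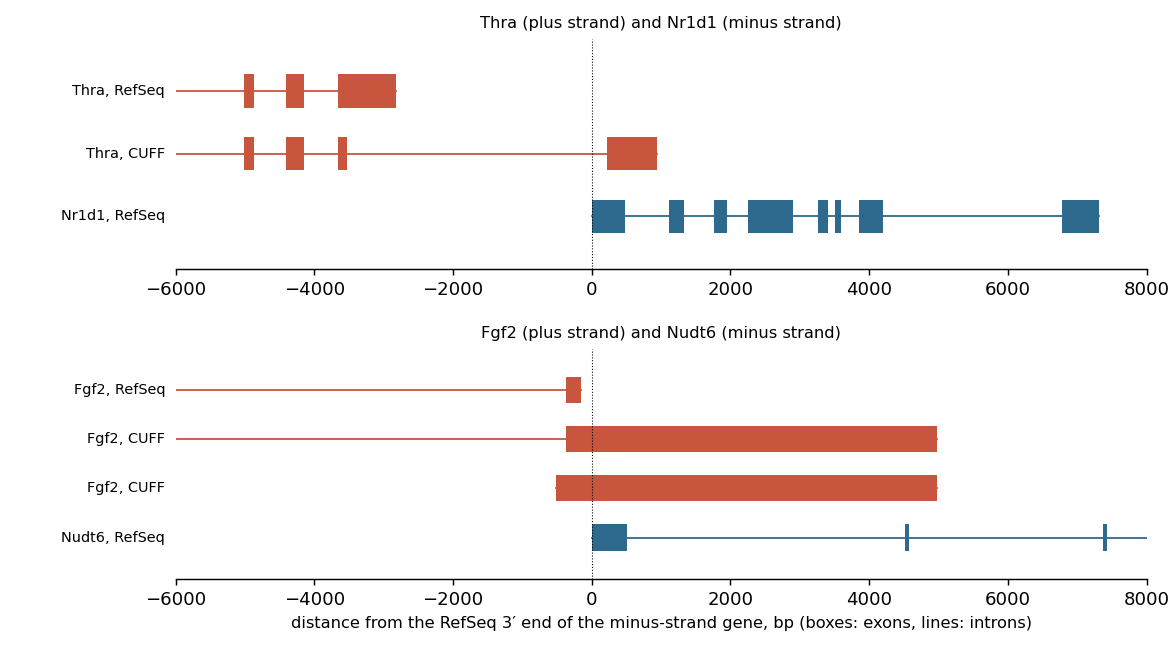
RefSeq and CUFF models of Thra with Nr1d1 (upper panel) and Fgf2 with Nudt6 (lower panel), plus strand in red and minus strand in blue, against distance in bp from the RefSeq 3′ end of the minus-strand gene (boxes are exons, lines introns, and models are clipped at the panel edges). CUFF models of the plus-strand genes cross position 0 and overlap the partner by 263 bp for Thra and 563 bp for Fgf2, whereas their RefSeq models end before it.

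Other transcripts over the shared sequence were also counted. An exon of a CUFF model with no gene symbol lay over the overlap in 4 pairs, Ddx54/Ccdc42b, Dopey1/Pgm3, Nt5dc2/Stab1 and Oxa1l/Slc7a7. None of 591 microRNA models lay over an overlap. The overlaps came to 147686 bp together, and no share over other sequence was computed, so these counts are not read as low or high. Elsewhere in the genes, 11 of 771 pair genes (1.43%, 0.714 to 2.54) held a microRNA model, the same share as the 1.43% of all coding genes. They held 12 models, 9 on the strand of the gene and 3 on the opposite strand. In exons were 3 of the 12, Mir1306 in Dgcr8, Mir343 in Ercc2 and Mir3572 in Cnot3.

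In structure, pair genes had spliced lengths and exon numbers close to those of coding genes at large, a shorter genomic span (given above) and fewer single-exon genes. The longest RefSeq model of a pair gene had a median of 2756 nt (quartiles 1842.5 and 3927.5) and 10 exons (7 and 16), against 2684 nt (1667 and 4093) and 9 exons (5 and 15) over all coding genes. The median last exon was 1021 nt (476 and 1792.5) in pair genes, 607 nt (343 and 1361) in genes with a gap of up to 500 bp and 1102 nt (505 and 2107) over all coding genes. The facing genes that did not overlap thus had the shortest last exons of the 3. Their difference from pair genes is partly built in, since the rule sorts facing genes by whether their ends reach each other. It was not tested. Single-exon genes made up 4 of 771 pair genes (0.519%) and 530 of 13175 coding genes (4.02%).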

How the data were processed

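CAGE and PAS-Seq were run on total RNA of wild-type C57BL/6J mouse testes, 1 library per group, at 10.5 days post partum (CAGE) and in adults (CAGE, and PAS-Seq with reads of 100 nt). The processing notes of the submitters name TopHat2 2.0.4 and the build mm9. No source names the assembler, the filters, or how CAGE and PAS-Seq ends were applied to the models. The deposited table is a headerless BED table of 12 columns holding positions and exon lengths in bp, with no value per library. Library depth is therefore unknown.

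Models coded NM_R (17410 models, 233 of them with a noncoding accession) defined 13175 coding genes. Pairs were found from exon positions with Python 3.11.15, and the finder was tested on simulated data. Ends within 50 nt counted as equal, but overlap lengths were compared without this tolerance. The 7148 CUFF models were read by their gene symbol, on the strand of the RefSeq models. Shares have exact Clopper-Pearson 95% intervals (SciPy 1.17.1), which treat each gene or pair as separate. No test across genes was run, since genes are not replicates.

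Members, gene lists and naming rules were chosen with earlier results of these data known. Named by rule were the 10 longest overlaps, the 5 largest shares of the shorter model, the 5 shortest overlaps, the 5 smallest gaps, list members, known pairs, and the 5 largest gains and losses with CUFF models. A loss was read from CUFF models alone, since adding models cannot shorten the longest overlap. Other genes were chosen after their values were seen. No sequence of an overlap is shown, because no mm9 genome was used here. The values of 1 known pair are not reported here.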

Additional observations from a re-analysis of the deposited data

How the results depend on the processing

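The count of overlapping pairs depended mainly on the minimum overlap: it was 387 at 1 bp, 316 at 50 bp and 202 at 200 bp. It was 494 with coding models coded XX added, 417 with CUFF models, 397 with pairs in which 1 model lies within the other, 368 with last exons required to meet, 337 without clone-type symbols, and 387 without unplaced and mitochondrial sequences. Facing neighbours without overlap numbered 252 with a gap of up to 500 bp, 139 up to 200 bp and 408 up to 1000 bp, as the wider or narrower window gives by construction. The median overlap ran from 210 bp (shortest overlap per pair) to 310.5 bp (minimum of 50 bp), and the share of pairs in last exons only from 75.3 to 79.8%. Pairs with a CUFF end downstream numbered 18 to 27 and upstream 99 to 119 over tolerances of 10 to 200 nt. Alternatives chosen after seeing the data gave 383 pairs without noncoding accessions. They also gave a share of genes with a CUFF model of 26.1% in pairs of 200 bp or more, 22.4% in pair genes and 38.7% in all coding genes with the NM_N code alone, 23.9% and 43.2% by position, and 33.1% and 56.3% among genes of the longest span. No paired analysis was possible because each group had 1 library and the table gives no value per library. With depth unknown, a RefSeq end that no CUFF model reaches is not shown to be unused.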
